A study of Homo sapiens with 18 samples.

Results

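Paclitaxel was set directly against epirubicin in normoxic MDA-MB-231 cells, on the 3 arrays titled N tax and the 3 titled N epi, which are 6 of the 18 arrays of the series. N tax cells had received 50 µM paclitaxel and N epi cells 10 µM epirubicin, each for 16 hours at 20% oxygen in medium without serum. N cells, the 3 arrays of the same oxygen and time with no drug, were used to tell which drug had moved a gene. The arrays of 1% oxygen, also with and without the drugs, entered no value given here unless a sentence says so. The 2 drugs were used at different doses, so the drug and its dose cannot be told apart. The study's methods call the arrays of a condition biological replicates, while no label ties them to separate cultures, and p-values measure the spread between these arrays.

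MDA-MB-231 is a human breast cancer line with a mesenchymal profile that lacks the estrogen receptor. Paclitaxel, a taxane, binds beta-tubulin and stabilizes microtubules, so that the spindle cannot work and cells are held in mitosis. Epirubicin, an anthracycline, intercalates into DNA and traps topoisomerase II on it, which breaks DNA and disturbs the movement of polymerases. Transcripts that turn over fast, such as those of immediate early genes, lose level soon after their synthesis stops, while long-lived transcripts keep theirs for many hours.

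The values were log2 signals from Affymetrix HG-U133 Plus 2.0 arrays after GC-RMA, from 2.23 to 16.58, and a difference of 2 log2 units is 4-fold. A gene was tested when its signal exceeded a log2 value of 3.14, the presence threshold of the study's methods, on at least 2 arrays of N tax, N epi or N, and between 41.4% and 42.5% of the probe sets exceeded it on an array. On the arrays numbered 3, the source name gave another of the 3 conditions than the title. They were grouped by title, and their mean correlation across probe sets with the title's condition was 0.9927 to 0.9986, against 0.9466 to 0.9881 with the source name's. Placed by source name, they left 0 probe sets past the limma test between N tax and N epi, with 282 of 23728 at an unadjusted p under 0.05. Every comparison was repeated on arrays 1 and 2 alone. N epi replicate 2 stood apart, with a correlation of 0.989 to the other N epi replicates, against 0.9965 between replicates 1 and 3. The signal for the 3' end of ACTB minus that for its 5' end was 0.107 to 0.237 in N tax and -0.232 to -0.206 in N epi, against -0.042 to 0.040 in N. The part of this gap in the results was not tested. All 11 tested MDA-MB-231 markers exceeded the threshold on all 9 arrays, with a VIM level of 15.64 in N tax, 15.59 in N epi and 15.66 in N. The estrogen receptor gene ESR1 averaged 2.31 in N tax, 3.04 in N epi and 2.31 in N, and it passed the presence filter through N epi alone. ESR1 did not stand for the other markers of luminal breast cells. Of 12 such markers 9 were tested, and 8 of these exceeded the threshold on all 9 arrays. Of the markers of other cells handled in the study, 4 of 12 hepatocyte and 3 of 10 keratinocyte genes were tested, while ALB, KRT5 and KRT14 did not exceed the threshold on enough arrays. In N tax 0 of the 4 hepatocyte genes were higher than in N epi and 2 were lower, SERPINA1 with 6.89 in N tax and 8.42 in N epi, against 7.97 in N (difference -1.54 ± 0.20, adjusted p = 0.000181), and AFP, which exceeded the threshold on 2 N epi arrays alone (at least 1.34-fold lower in N tax than in N epi, adjusted p = 0.000823). Of the 3 keratinocyte genes 2 were higher in N tax than in N epi and 1 was lower, with SFN, which other epithelial cells also express, at 14.16 in N tax and 12.65 in N epi, against 14.53 in N (adjusted p = 2.5e-05). KRT10 was at 13.03 in N tax and 12.67 in N epi, against 12.97 in N (adjusted p = 0.00513), and FLG lay near the threshold with 2.90 in N tax and 3.42 in N epi, against 3.26 in N (adjusted p = 0.0144). The part of other cells in the results was not tested.

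The 2 drugs left different expression profiles. Of 11184 genes tested with limma, 8350 (74.7%) differed between N tax and N epi, 4347 (38.9%) higher and 4003 (35.8%) lower in N tax, at an adjusted p under 0.05. Large differences ran mostly one way, since 1478 genes (13.2%) were 4-fold or more higher in N tax and 206 (1.84%) were 4-fold or more lower. In arrays 1 and 2 alone, 3613 of 11042 genes (32.7%) were higher in N tax and 3405 (30.8%) lower, with 1190 (10.8%) and 178 (1.61%) by 4-fold or more. The counts of the gene lists given here stand against these shares, and a list with similar shares does not stand apart from the other genes. Normalization brings the arrays to a common scale, so a loss of RNA from the whole cell would not show, and in bulk RNA fewer cells with a transcript and less of it per cell cannot be told apart. Of the 173 genes chosen for naming, 91 had more than 1 tested probe set, and in 72 of the 88 that passed on the brightest, every probe set passed in the same direction. Probe sets differed by more than 1 log2 unit in 42 genes.

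**Figure D1:**
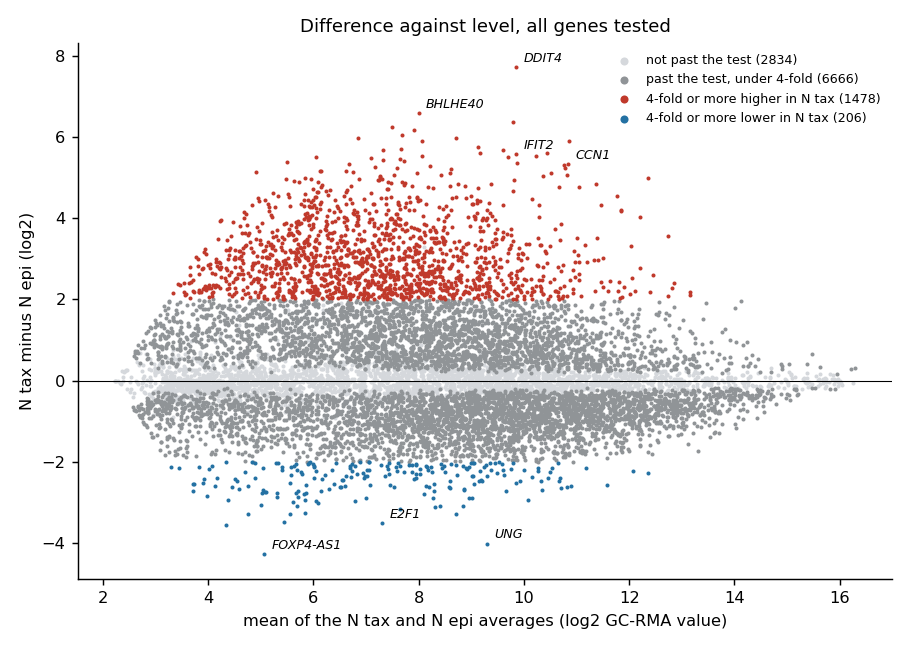
Difference between N tax and N epi (log2, y axis) against the mean of both conditions' averages (log2 GC-RMA value, x axis) for the 11184 genes tested, 1 point a gene. The 1478 red points are 4-fold or more higher in N tax and reach 7.72 at DDIT4, and the 206 blue points are 4-fold or more lower and reach -4.27 at FOXP4-AS1.

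The N arrays tell which drug had moved these genes, with the limit that all 3 comparisons share arrays and 1 pooled spread. That spread takes in the N epi arrays, and for the 1478 genes 4-fold or more higher in N tax the median SD was 0.164 in N tax and 0.746 in N epi, against 0.117 in N. A missed test between N tax and N therefore does not show that paclitaxel left a gene unmoved, and this comparison was also fitted on the 6 N tax and N arrays alone, a choice made after seeing the data. Relative to N, 1801 genes (16.1%) were higher and 2595 (23.2%) lower in N tax, while 3531 (31.6%) were higher and 4118 (36.8%) lower in N epi. Of the 1478 genes 4-fold or more higher in N tax than in N epi, 1384 (93.6%) were lower in N epi than in N, and between N tax and N 321 (21.7%) passed as higher in N tax and 56 (3.79%) as lower. With N tax and N alone, where 22.2% of 11020 genes were higher and 26.3% lower in N tax, 764 (51.7%) of the 1478 passed as higher and 157 (10.6%) as lower, and 557 (37.7%) did not pass. The 206 genes in the other direction were mostly moved by both drugs, for 162 (78.6%) were lower in N tax than in N, 175 (85%) were higher in N epi than in N, and 131 (63.6%) were both. With N tax and N alone, 168 (81.6%) of the 206 were lower in N tax. N epi replicate 2 was the highest N epi array in 1330 (90%) of the 1478 genes and the lowest in 166 (80.6%) of the 206. All 1478 and all 206 still passed the test without it, and 1327 and 206 passed in arrays 1 and 2.

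Regulators of signalling and transcription were among the 15 genes with the largest excess in N tax. DDIT4, a stress-induced inhibitor of mTORC1, had levels of 13.57, 13.87 and 13.69 in N tax and 3.86, 10.28 and 3.84 in N epi, against 12.19, 12.40 and 12.22 in N, replicates 1, 2 and 3 in turn. N epi replicates 1 and 3 were far below N, replicate 2 lay between them and N, and all N tax arrays lay above N. The difference between N tax and N epi was 7.72 ± 1.51 log2 units (SE, limma, adjusted p = 0.00179, and 0.0466 in arrays 1 and 2), or 9.86 without N epi replicate 2. BHLHE40, a circadian and hypoxia-responsive repressor, had 11.14, 11.45 and 11.29 in N tax and 4.01, 7.30 and 2.83 in N epi, against 10.68, 10.47 and 10.86 in N. Its N tax arrays lay above all N arrays but within 1 log2 unit of them, and all N epi arrays lay below both (difference 6.58 ± 0.95, adjusted p = 0.000321, and 0.011 in arrays 1 and 2). Between N tax and N the BHLHE40 difference was 0.62 (adjusted p = 0.663, and 0.011 with N tax and N alone). TRIB1, a pseudokinase that directs proteins to degradation, was also lowest in N epi, with 10.59, 10.24 and 11 in N tax and 2.83, 7.56 and 2.71 in N epi, against 10.05, 9.89 and 10.29 in N (difference 6.25 ± 1.14, adjusted p = 0.00122, and 0.0394 in arrays 1 and 2). NAV3, which encodes a protein of microtubule plus ends, had 10.80, 10.56 and 10.76 in N tax, against 3.59, 6.27 and 4.12 in N epi, and relative to N it differed by 1.21 in N tax (adjusted p = 0.144, and 0.000545 with N tax and N alone) and fell by 4.84 in N epi. Its 4 probe sets differed between N tax and N epi by 0.95 to 6.04. PELO, which rescues stalled ribosomes, had 11.13, 10.94 and 10.98 in N tax, against 3.93, 7.52 and 3.91 in N epi, and relative to N it differed by 1.07 in N tax (adjusted p = 0.374, and 0.000736 with N tax and N alone) and fell by 4.83 in N epi. The noncoding transcript SPRY4-IT1 and the ADP-ribosyltransferase gene TIPARP were also among the 15 largest, with differences of 5.96 and 5.67. Those 15 had to pass in arrays 1 and 2 as well, which DUSP5 (6.36), SPRY4 (6.18) and MAD2L1BP (5.67), an adaptor gene of the spindle checkpoint, did not. GTPBP2, linked to ribosome rescue in mice, had a difference of 5.54 on the probe set with the highest signal but down to -0.38 on others.

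**Figure D2:**
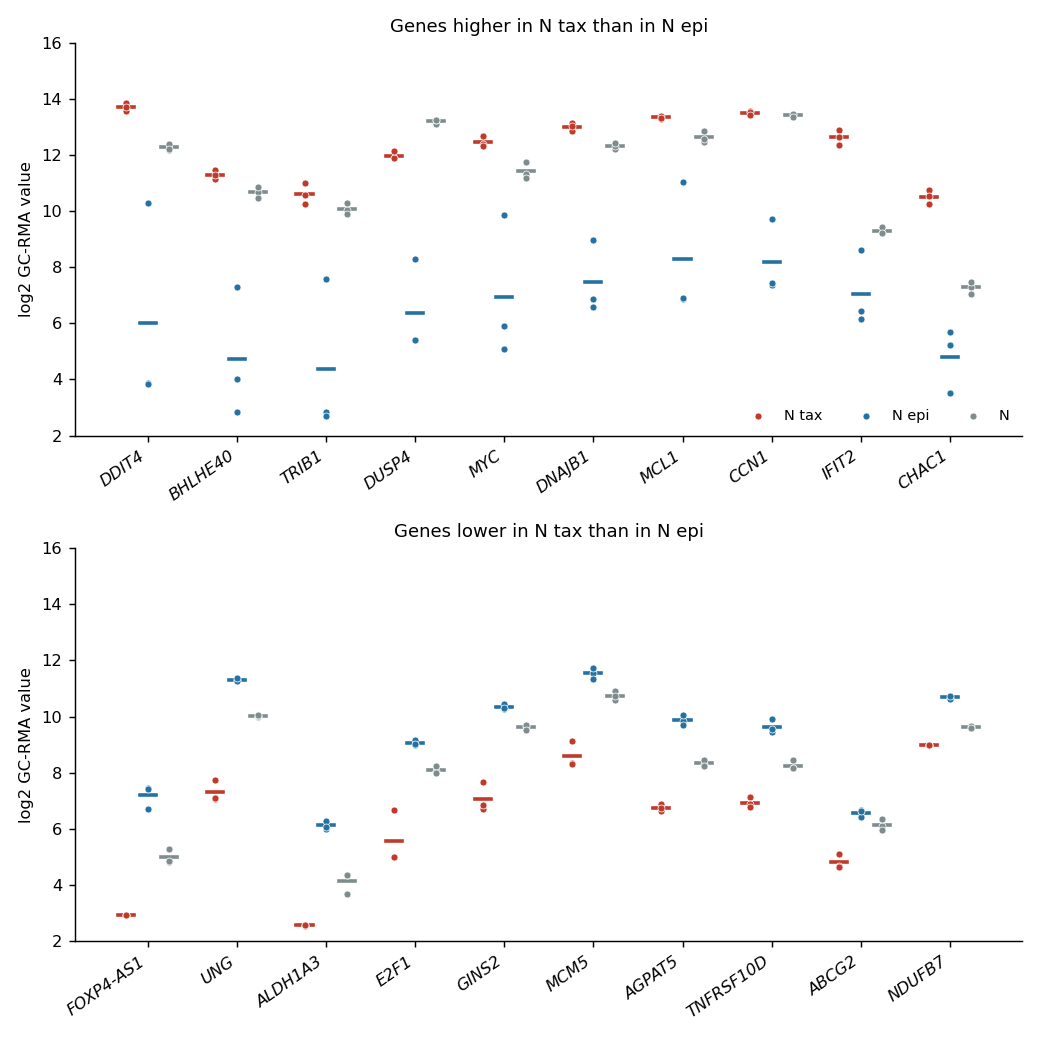
Log2 GC-RMA values (y axis) of 10 genes higher and 10 genes lower in N tax than in N epi, 1 point an array and 1 bar the mean, with N tax, N epi and N side by side. In the upper panel 1 N epi point often lies far above the others, as for DDIT4 (10.28 against 3.86 and 3.84), while in the lower panel the points of a condition mostly lie close together.

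Immediate early transcription factors, which cells switch on within minutes of a stimulus, were higher in N tax as a group. Of 25 tested, 22 were higher and 1 lower in N tax, with a median difference of 3.24 against 0.00 over all genes, and 18 were higher by 4-fold or more. In arrays 1 and 2, 11 of 24 were higher and 0 lower, and 22 were higher without N epi replicate 2. Relative to N, 14 were lower in N epi and 6 higher in N tax, or 17 with N tax and N fitted alone. MYC, a driver of growth and ribosome synthesis, had 12.38, 12.69 and 12.31 in N tax and 5.90, 9.87 and 5.08 in N epi, against 11.33, 11.76 and 11.17 in N. The N tax arrays lay above all N arrays and the N epi arrays below them (difference 5.51 ± 1.05, adjusted p = 0.00157, and 0.0339 in arrays 1 and 2). KLF4, a factor of epithelial differentiation, had 13.11, 13.52 and 13.11 in N tax and 6.66, 10.49 and 5.77 in N epi, against 10.98, 11.30 and 11.03 in N. Again no condition overlapped another (difference 5.61 ± 1.03, adjusted p = 0.00124, and 0.0288 in arrays 1 and 2), and N tax differed from N by 2.14 (adjusted p = 0.14, and 0.000327 with N tax and N alone). IER2 was higher in N tax by 5.10 and FOSL1, an AP-1 subunit, by 4.20, with FOSL1 levels of 13.98, 14.15 and 13.68 in N tax, against 9.27, 10.71 and 9.23 in N epi. Among partners and rivals of MYC, 12 of 17 genes were higher and 3 lower in N tax, with 6 higher in arrays 1 and 2. MGA and MNT, repressors at the same sites, were higher by 3.91 and 2.85, although another MNT probe set gave -0.35. MXD1, another partner of MAX, had a difference of 3.48 that did not pass in arrays 1 and 2 (adjusted p = 0.175).

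The phosphatases and Sprouty proteins that restrain MAP kinase signalling had the largest median of all lists. In N tax 14 of 16 were higher and 0 lower (median 4.01), 9 in arrays 1 and 2 and 14 without N epi replicate 2. N epi was lower than N in 12 of them, and N tax was higher than N in 1 and lower in 1. With N tax and N fitted alone, 5 were higher and 4 lower in N tax. DUSP4, a nuclear ERK phosphatase, had 11.89, 11.87 and 12.16 in N tax and 5.42, 8.29 and 5.42 in N epi, against 13.10, 13.26 and 13.25 in N. Here the N tax arrays also lay below N, and the N epi arrays far below both (difference 5.60 ± 0.68, adjusted p = 0.000121, and 0.0101 in arrays 1 and 2). DUSP1, which dephosphorylates p38, JNK and ERK, had 11.57, 12.59 and 11.87 in N tax and 4.73, 9.43 and 4.61 in N epi, against 8.96, 9.85 and 8.76 in N. N epi replicate 2 was inside the range of N, and the difference of 5.75 ± 1.16 passed in both fits (adjusted p = 0.00213, and 0.048 in arrays 1 and 2), with 1.44 on its other probe set. DUSP5 (6.36 ± 1.40) and SPRY4 (6.18 ± 1.36) missed the threshold in arrays 1 and 2 (adjusted p = 0.0735 and 0.0603).

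NF-kB, which drives inflammatory genes, also induces its own inhibitors. Of 17 subunits and feedback inhibitors, 10 were higher and 2 lower in N tax (median 1.34), with 6 higher in arrays 1 and 2 and 13 without N epi replicate 2. NFKBIZ, an inducible nuclear cofactor, had 9.18, 9.71 and 9.13 in N tax, against 3.46, 6.26 and 2.34 in N epi (difference 5.32 ± 0.83, adjusted p = 0.000512, and 0.013 in arrays 1 and 2), with 3.05 on another probe set. NFKBIA, the inhibitor that NF-kB induces against itself, had 10.75, 12.15 and 10.73 in N tax and 3.92, 9.66 and 4.44 in N epi, against 10.56, 10.87 and 10.74 in N. N epi replicate 2 was near N and the others lay far lower, and the difference of 5.20 ± 1.33 passed with all arrays (adjusted p = 0.00742) but not in arrays 1 and 2 (adjusted p = 0.0955). Cytokine genes gave 5 higher and 2 lower of 14, with 2 higher in arrays 1 and 2 and 8 without N epi replicate 2. CCL5, a chemokine for T cells and monocytes, was raised by paclitaxel, with 5.79, 6.02 and 6.20 in N tax and 2.73, 2.96 and 2.69 in N epi, against 2.41, 2.47 and 2.31 in N. Its N epi and N arrays were all below the presence threshold, so N tax was at least 7.27-fold above N epi (adjusted p = 1.13e-06, and 0.000874 in arrays 1 and 2). PTGS2, the inducible cyclooxygenase gene, had 7.37, 7.90 and 7.79 in N tax and 3.82, 6.95 and 3.39 in N epi, against 3.84, 4.64 and 3.86 in N, and the N tax excess of 2.97 ± 0.82 (adjusted p = 0.0108) missed the threshold in arrays 1 and 2 (adjusted p = 0.132) and was 1.46 on another probe set.

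Among targets of YAP and TEAD, which report cell shape and tension, 15 of 27 were higher and 6 lower in N tax (median 0.39). These counts were 12 and 6 in arrays 1 and 2. N tax was higher than N in 2 and lower in 9, or 2 and 10 with N tax and N alone. N epi was higher than N in 3 and lower in 15. CCN1, a secreted matrix protein gene, had 13.56, 13.53 and 13.43 in N tax and 7.38, 9.72 and 7.44 in N epi, against 13.43, 13.45 and 13.35 in N. N tax and N overlapped and every N epi array was lower (difference 5.33 ± 0.55, adjusted p = 4.95e-05, and 0.0058 in arrays 1 and 2). CCN2 (4.33) and AMOTL2 (4.36), which encodes an angiomotin that holds YAP in the cytoplasm, were also lower in N epi, with differences from N of -4.40 and -4.16. EGFR, the receptor of epidermal growth factor, had 13.58, 13.42 and 13.34 in N tax and 11.75, 12.02 and 12.01 in N epi, against 12.75, 12.75 and 12.73 in N, with paclitaxel above N and epirubicin below it (difference 1.52 ± 0.10, adjusted p = 6.5e-06, and 0.00134 in arrays 1 and 2). Its ligand gene HBEGF was higher by 1.90 and NRG1, a ligand of ERBB3 and ERBB4, had a difference of -1.85, although another NRG1 probe set gave 2.07. Of the 5 NRG1 probe sets 2 passed as higher and 2 as lower in N tax.

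Genes of the integrated stress response, which ATF4 induces when amino acids run short or proteins misfold, were raised by paclitaxel. Of 35 tested, 30 were higher and 2 lower in N tax than in N epi (median 1.55), with 27 and 2 in arrays 1 and 2. N tax was higher than N in 28 and lower in 0 (median 1.44), while N epi was higher than N in 15 and lower in 10. CHAC1, which degrades glutathione, had 10.74, 10.24 and 10.53 in N tax and 5.70, 5.22 and 3.51 in N epi, against 7.31, 7.49 and 7.06 in N. No arrays of different conditions overlapped, with N tax the highest and N epi the lowest (difference 5.69 ± 0.49, adjusted p = 2e-05, and 0.000908 in arrays 1 and 2), and relative to N it rose by 3.22 in N tax and fell by 2.47 in N epi. TRIB3, a pseudokinase that restrains ATF4, had 13.93, 13.54 and 13.92 in N tax and 6.94, 9.81 and 6.93 in N epi, against 11.07, 11.57 and 11.22 in N and the same order (difference 5.91 ± 0.69, adjusted p = 9.96e-05, and 0.00897 in arrays 1 and 2). SESN2, an inhibitor of mTORC1 that both ATF4 and p53 induce, had 10.50, 10.25 and 10.38 in N tax and 4.12, 7.52 and 3.15 in N epi, against 6.96, 7.21 and 6.55 in N. Paclitaxel raised it by 3.47 over N, and the N epi difference from N, -1.98, did not pass (adjusted p = 0.0964).

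ATF4 binds a composite site, searched here as TGATGNAA on both strands, in the promoter windows that RefSeq gives. A match was present for 11 of the 31 listed genes with a promoter entry (35.5%) and for 4.46% of 27305 genes in the table (2.73% of those tested), which describes letters and not binding. Of the 11 genes with a match, 10 were higher in N tax, as were 17 of 20 without one. The 250 bases before the CHAC1 start (chr15:40953221-40953470 on the plus strand, GRCh38.p14) are shown because CHAC1 was moved in opposite directions by the drugs, with the match in capitals on the opposite strand.
CHAC1: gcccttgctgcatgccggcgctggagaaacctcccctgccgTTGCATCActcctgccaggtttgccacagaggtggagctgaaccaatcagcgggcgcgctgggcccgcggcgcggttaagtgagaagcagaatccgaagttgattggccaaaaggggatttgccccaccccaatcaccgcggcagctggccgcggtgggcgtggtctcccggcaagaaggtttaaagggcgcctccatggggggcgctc

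The chaperones and enzymes that fold proteins in the endoplasmic reticulum were mostly higher with paclitaxel too. N tax exceeded N epi in 22 of 24 and lay below it in 1 (median 1.03), 18 and 1 in arrays 1 and 2. N tax exceeded N in 20 (median 1.17), while N epi was higher than N in 7 and lower in 6. DNAJB9, an ER co-chaperone, had 13.37, 13.31 and 13.61 in N tax and 7.62, 10.66 and 7.67 in N epi, against 9.92, 10.26 and 10.13 in N. N epi replicate 2 lay above every N array and the others below it, and all N tax arrays were higher (difference 4.77 ± 0.71, adjusted p = 0.000399, and 0.0209 in arrays 1 and 2). HERPUD1, which helps to remove misfolded proteins from the ER, had 12.81, 12.91 and 12.95 in N tax, against 6.78, 9.91 and 6.86 in N epi (difference 5.04 ± 0.73, adjusted p = 0.000324, and 0.0181 in arrays 1 and 2). XBP1, the factor that the sensor IRE1 activates by splicing, and ERN1, which encodes IRE1, missed the threshold in arrays 1 and 2 (adjusted p = 0.0691 and 0.268), with differences of 4.38 and 2.97 over all arrays.

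Cytosolic heat shock genes did not move as a group, with 7 higher and 6 lower of 22 (median 0.02), 5 and 4 in arrays 1 and 2. DNAJB1, a co-chaperone of HSP70, stood out with 13.12, 12.85 and 13.04 in N tax and 6.87, 8.97 and 6.58 in N epi, against 12.21, 12.34 and 12.44 in N, low in N epi (difference 5.53 ± 0.54, adjusted p = 3.77e-05, and 0.0043 in arrays 1 and 2). All N tax arrays of DNAJB1 lay above N, with a difference of 0.68 (adjusted p = 0.3745, and 0.00356 with N tax and N alone). HSPA6, an HSP70 gene expressed after stress, had 5.09, 5.96 and 5.11 in N tax and 3.26, 4.13 and 2.83 in N epi, against 2.54, 2.39 and 2.41 in N. It was below the presence threshold in N, was highest in N tax, and was 1.98 higher there than in N epi (adjusted p = 0.000938, and 0.0177 in arrays 1 and 2). Among antioxidant genes under NRF2, 17 of 29 were higher and 7 lower in N tax (median 0.94), 15 and 3 in arrays 1 and 2. HMOX1, which breaks down heme, had 10.02, 9.41 and 9.87 in N tax and 5.49, 5.71 and 5.08 in N epi, against 7.46, 7.10 and 7.09 in N, with N tax above N and N epi below it (difference 4.34 ± 0.21, adjusted p = 1.95e-06, and 0.000964 in arrays 1 and 2). GCLC, the catalytic subunit of glutathione synthesis, had 10.98, 10.63 and 11.05 in N tax, against 5.49, 8.13 and 5.53 in N epi (difference 4.50 ± 0.62, adjusted p = 0.000256, and 0.016 in arrays 1 and 2), and KEAP1, which marks NRF2 for degradation, was higher by 2.87. Relative to N it differed by -0.05 in N tax (adjusted p = 0.915, and 0.58 with N tax and N alone) and fell by 2.93 in N epi.

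Interferon-stimulated genes, which restrict viruses and sense their RNA, were mostly higher with paclitaxel. Of 40 tested, 28 were higher in N tax than in N epi and 4 lower (median 2.0), with 26 and 2 in arrays 1 and 2 and 29 higher without N epi replicate 2. N tax exceeded N in 22 and lay below it in 6, and N epi exceeded N in 2 and lay below it in 16. IFIT2, which binds foreign RNA, had 12.37, 12.90 and 12.63 in N tax and 6.44, 8.60 and 6.14 in N epi, against 9.23, 9.42 and 9.22 in N. The N tax arrays were the highest and the N epi arrays the lowest (difference 5.57 ± 0.56, adjusted p = 4.49e-05, and 0.0048 in arrays 1 and 2), and relative to N it rose by 3.34 in N tax and fell by 2.23 in N epi. IFIT1, of the same family, had 13.51, 14.23 and 13.60 in N tax and 8.53, 9.67 and 8.65 in N epi, against 10.61, 10.74 and 10.64 in N. IFIT3, which binds IFIT1, had 13.86, 14.21 and 13.71 in N tax and 9.40, 10.31 and 9.54 in N epi, against 12.01, 11.92 and 11.72 in N. Neither showed an overlap between conditions, and N tax exceeded N epi by 4.83 ± 0.31 and 4.18 ± 0.24. IFI44, of unsettled function, had 11.24, 11.24 and 11.33 in N tax and 6.32, 6.42 and 6.69 in N epi, against 8.20, 8.34 and 8.47 in N, so that N epi replicate 2 lay with its replicates here (difference 4.79 ± 0.12, adjusted p = 3.25e-07, and 0.000874 in arrays 1 and 2), although its other probe set gave 1.54. OASL, which enhances RNA sensing by RIG-I, had 11.36, 12.33 and 11.38 in N tax and 4.0, 8.07 and 5.12 in N epi, against 7.68, 8.16 and 7.95 in N. N epi replicate 2 lay inside the range of N, and the N epi difference from N, -2.20, did not pass (adjusted p = 0.0564), whereas N tax exceeded N by 3.76 and N epi by 5.96 ± 0.89 (adjusted p = 0.000389, and 0.0204 in arrays 1 and 2).

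The factors that interferon activates bind the response element searched here as GAAA, any 2 bases and GAAA on both strands. It was found for 24 of 33 listed genes with a promoter entry (72.7%), against 4.38% of all genes in the table and 3.97% of those tested. Among genes with a match 16 of 24 were higher and 3 lower in N tax, and among those without, 8 of 9 were higher and 0 lower. The 150 bases before 1 start each of IFIT1 (chr10:89392473-89392622 on the plus strand), IFIT3 (chr10:89327847-89327996 on the plus strand) and IFI44 (chr1:78649639-78649788 on the plus strand, all GRCh38.p14) are shown as the promoters of genes raised by paclitaxel and lowered by epirubicin. Capitals mark the element, read on the opposite strand.
IFIT1: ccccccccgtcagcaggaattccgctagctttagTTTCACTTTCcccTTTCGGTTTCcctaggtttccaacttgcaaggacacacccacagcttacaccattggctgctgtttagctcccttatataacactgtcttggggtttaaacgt
IFIT3: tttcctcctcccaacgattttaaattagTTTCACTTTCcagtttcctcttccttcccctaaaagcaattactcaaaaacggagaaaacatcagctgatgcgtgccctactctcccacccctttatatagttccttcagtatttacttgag
IFI44: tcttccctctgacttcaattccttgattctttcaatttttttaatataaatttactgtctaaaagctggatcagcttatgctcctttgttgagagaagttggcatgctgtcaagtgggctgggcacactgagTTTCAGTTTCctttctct

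**Figure D3:**
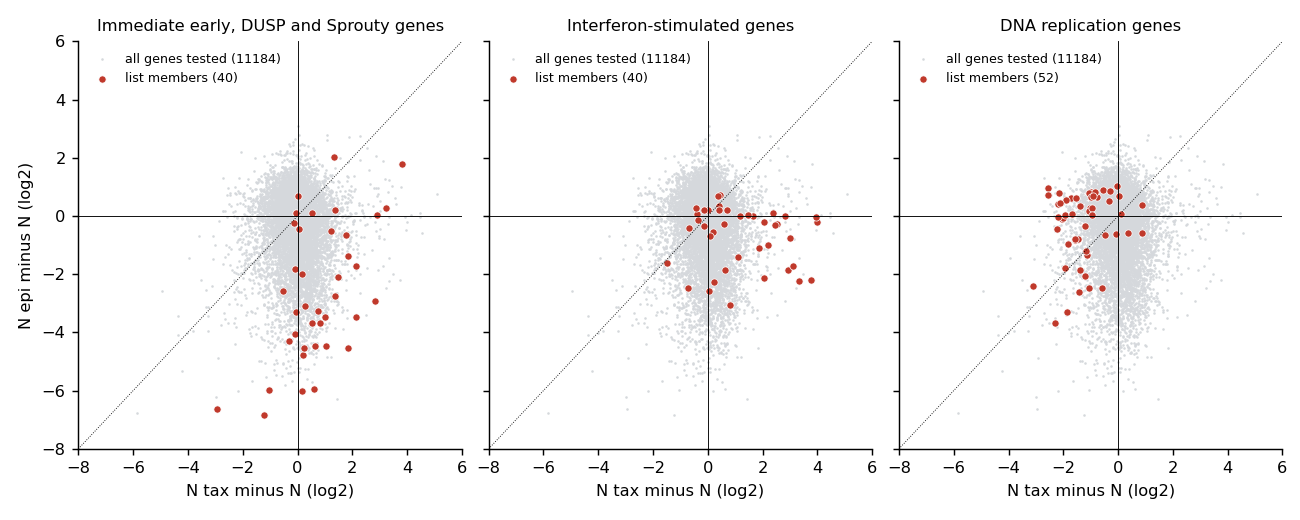
Difference of N epi from N (log2, y axis) against the difference of N tax from N (log2, x axis) for all 11184 genes (grey) and for the members of 3 sets of lists (red), with a dotted line where both are equal. Both axes share the N arrays. Immediate early, DUSP and Sprouty genes spread downwards, with DUSP4 at -6.83 on the y axis, interferon-stimulated genes to the right, with IFIT2 at 3.34 on the x axis, and replication genes to the left, with E2F1 at -2.55.

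Among genes that p53 induces after damage, 22 of 29 were higher in N tax and 4 lower (median 1.58), 15 and 4 in arrays 1 and 2. The p53 of MDA-MB-231 cells is mutant, and many of these genes have other inducers. Relative to N, 13 were lower and 3 higher in N epi, the drug that damages DNA, and 9 were higher and 3 lower in N tax, or 13 and 5 with N tax and N alone. SERTAD1, a regulator of CDK4, had 11.37, 11.19 and 11.31 in N tax and 6.72, 9.57 and 5.57 in N epi, against 10.23, 10.21 and 10.50 in N (difference 4.01 ± 0.84, adjusted p = 0.00264, and 0.0396 in arrays 1 and 2). PPM1D, the phosphatase that ends the damage signal, had 8.33, 8.13 and 8.37 in N tax and 2.23, 6.83 and 2.23 in N epi, against 8.29, 8.23 and 8.08 in N. N epi replicates 1 and 3 were near the lowest value of the data, replicate 2 was far above them, and the difference of 4.51 ± 1.08 missed the threshold in arrays 1 and 2 (adjusted p = 0.0909).

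In the BCL2 family, 8 of 18 (44.4%) were higher and 7 (38.9%) lower in N tax (median 0.02), 7 and 7 in arrays 1 and 2. These shares were near those of all genes (38.9% and 35.8%), so the family did not stand apart. MCL1, a short-lived inhibitor of apoptosis, had 13.40, 13.30 and 13.33 in N tax and 6.88, 11.05 and 6.91 in N epi, against 12.47, 12.85 and 12.58 in N, with N epi replicates 1 and 3 the lowest (difference 5.06 ± 0.98, adjusted p = 0.00167, and 0.0452 in arrays 1 and 2). All N tax arrays of MCL1 lay above N, with a difference of 0.71 (adjusted p = 0.623, and 0.00394 with N tax and N alone). Its probe sets gave 2.09 to 5.80. PMAIP1, which encodes NOXA, the antagonist of MCL1, had 12.13, 12.50 and 12.20 in N tax and 9.53, 10.21 and 9.68 in N epi, against 9.67, 9.97 and 9.90 in N. N epi overlapped N here, and the rise in N tax over N was 2.43 (difference 2.47 ± 0.19, adjusted p = 1.17e-05, and 0.00279 in arrays 1 and 2). BID, which links death receptors to mitochondria, had 8.10, 8.54 and 7.88 in N tax and 10.04, 10.02 and 10.29 in N epi, against 9.24, 9.28 and 9.29 in N, and was lower in N tax (difference -1.94 ± 0.16, adjusted p = 1.84e-05, and 0.00191 in arrays 1 and 2). Of 16 death ligand and receptor genes, 10 were higher and 3 lower, with 8 and 2 of 14 in arrays 1 and 2. FADD, the adaptor that brings caspase 8 to death receptors, had 11.12, 11.08 and 11.24 in N tax and 5.18, 7.50 and 5.44 in N epi, against 11.44, 11.44 and 11.38 in N, and TNFRSF1A, the main receptor of TNF, had 10.65, 10.72 and 10.57 in N tax and 4.77, 8.14 and 4.77 in N epi, against 10.80, 10.73 and 10.98 in N. For both, N epi was low (5.11 and 4.75 between N tax and N epi), and the N tax mean differed from that of N by -0.27 and -0.19. FAS, a death receptor gene, was higher in N tax by 2.64, and relative to N it rose by 1.04 in N tax and fell by 1.60 in N epi. TNFRSF10D, a decoy receptor for TRAIL, ran against these with 7.15, 6.88 and 6.77 in N tax and 9.44, 9.91 and 9.57 in N epi, against 8.16, 8.15 and 8.44 in N (difference -2.71 ± 0.16, adjusted p = 3.66e-06, and 0.00118 in arrays 1 and 2). Caspase and IAP genes were higher in 12 and lower in 6 of 21, 11 and 6 of 20 in arrays 1 and 2. The higher ones were led by CASP8 (1.77), the caspase of death receptors, and XIAP (1.57), an inhibitor of caspases. The other CASP8 probe set gave 0.34 and did not pass, and the 7 of XIAP gave 0.50 to 1.90.

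Several other groups held more genes higher than lower in N tax, many of them low in N epi. Zinc finger genes with ZNF names, mostly repressors of repeats and of unknown targets, were higher in 268 of 351 tested and lower in 22 (median 1.62), with 240 of 344 higher in arrays 1 and 2, and 251 of the 351 were lower in N epi than in N. The array held 468 ZNF genes, and those not tested did not pass the presence filter. ZNF264 had 8.72, 8.55 and 8.90 in N tax and 2.51, 5.52 and 2.67 in N epi, against 7.96, 8.33 and 8.44 in N (difference 5.16 ± 0.70, adjusted p = 0.000233, and 0.0154 in arrays 1 and 2). In the machinery that releases paused RNA polymerase II, 17 of 36 genes (47.2%) were higher and 13 (36.1%) lower (median 0.24). These shares were near those of all genes (38.9% and 35.8%), so the list did not stand apart. The higher ones included CCNT1, a cyclin of P-TEFb, with 9.20, 9.11 and 9.44 in N tax and 5.83, 6.83 and 5.21 in N epi, against 9.22, 9.30 and 9.55 in N, low in N epi (difference 3.29 ± 0.35, adjusted p = 6.15e-05, and 0.003 in arrays 1 and 2), although another probe set gave 0.53. CDK7, which phosphorylates the polymerase at initiation, and BRD2, a reader of acetylated histones, were higher in N tax by 3.51 and 3.45. Relative to N they fell by 2.65 and 2.35 in N epi and differed by 0.86 and 1.10 in N tax. The N tax differences had adjusted p values of 0.15 and 0.0946, and of 0.00114 and 0.0002 with N tax and N alone. Of 27 sterol and fatty acid genes, 15 were higher and 5 lower in N tax, 14 and 3 in arrays 1 and 2. Yet 20 were lower in N tax than in N and 23 in N epi. INSIG1, the sterol sensor that holds SREBP in the ER, had 12.25, 11.69 and 12.42 in N tax and 6.48, 8.83 and 7.06 in N epi, against 13.12, 12.65 and 12.99 in N, and SQLE, which makes squalene epoxide, had 9.18, 8.96 and 9.42 in N tax and 5.46, 5.98 and 5.23 in N epi, against 9.90, 9.71 and 10.39 in N. All N tax and N epi arrays lay below N, those of N epi farther (4.66 and 3.64 between N tax and N epi), and N tax differed from N by -0.80 for INSIG1 (adjusted p = 0.282, and 0.0269 with N tax and N alone). Over their probe sets the difference between N tax and N epi was 1.73 to 5.09 for INSIG1 and 1.06 to 3.64 for SQLE. Genes of the hypoxia response, here at 20% oxygen, were higher in 16 and lower in 8 of 30, 12 and 8 in arrays 1 and 2. PFKFB4, which sets the rate of glycolysis, had 8.07, 8.16 and 8.13 in N tax and 3.98, 3.87 and 3.20 in N epi, against 8.92, 8.73 and 9.27 in N (difference 4.44 ± 0.21, adjusted p = 1.95e-06, and 0.000874 in arrays 1 and 2), although another probe set gave -0.12.

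**Figure D4:**
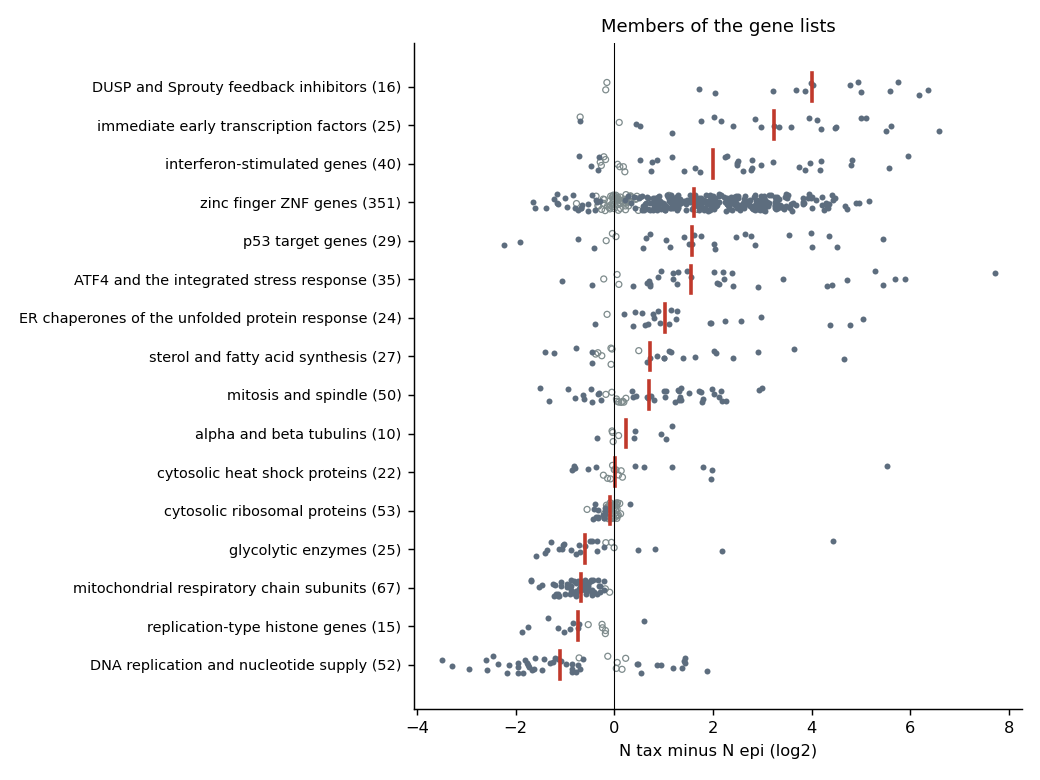
Difference between N tax and N epi (log2, x axis) for the tested members of 16 gene lists (number tested in brackets), 1 point a gene, filled where it passed the test, with a red bar at the median. DUSP and Sprouty genes stand farthest right (median 4.01) and replication genes farthest left (median -1.11), and all 67 respiratory chain genes lie left of 0.

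Among the 15 genes with the largest deficit in N tax, several were lower than N in N tax and higher than N in N epi. FOXP4-AS1, a long noncoding transcript, had 2.93, 2.92 and 2.93 in N tax and 7.46, 6.72 and 7.43 in N epi, against 4.81, 4.86 and 5.29 in N. N tax was below the presence threshold on all arrays, N epi was the highest, and N epi exceeded N tax at least 16.7-fold (adjusted p = 2.1e-06, and 0.000961 in arrays 1 and 2). UNG, which removes uracil from DNA, had 7.05, 7.74 and 7.09 in N tax and 11.29, 11.26 and 11.38 in N epi, against 9.97, 10.02 and 10.06 in N. The 3 conditions did not overlap, and relative to N it fell by 2.72 in N tax and rose by 1.29 in N epi (difference -4.01 ± 0.17, adjusted p = 1.53e-06, and 0.000967 in arrays 1 and 2). ALDH1A3, which makes retinoic acid, had 2.53, 2.57 and 2.58 in N tax and 5.99, 6.29 and 6.08 in N epi, against 4.37, 4.34 and 3.67 in N, below the threshold in N tax and at least 7.87-fold lower there than in N epi (adjusted p = 2.43e-06, and 0.000874 in arrays 1 and 2). AIF1L, an actin-bundling protein gene, had 3.60, 3.36 and 4.13 in N tax and 7.30, 6.84 and 7.36 in N epi, against 5.92, 5.67 and 5.95 in N (difference -3.47 ± 0.21, adjusted p = 4.83e-06, and 0.00093 in arrays 1 and 2). TSPAN8, a tetraspanin, and PDE1C, a calmodulin-dependent phosphodiesterase, had differences of -3.28 and -3.27, and the RNA-binding protein gene NANOS1 and the chromatin factor gene SAMD1 of -3.26 and -3.16. CPA4, a carboxypeptidase gene, and the antisense transcript SP2-AS1 were higher in N epi than in N by 2.14 and 3.09, whereas the SP2-AS1 difference between N tax and N was 0.04 (adjusted p = 0.965, and 0.944 with N tax and N alone). AGPAT5, an acyltransferase of lipid synthesis, had a difference of -3.12, but -0.25 on another probe set.

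DNA replication genes, which E2F switches on at the start of S phase, were lower in N tax. Of 52 tested, 35 were lower and 11 higher in N tax than in N epi (median -1.11), 34 and 8 in arrays 1 and 2. Paclitaxel lowered 44 below N and raised 3, while epirubicin raised 19 and lowered 21. MCM5, a subunit of the replicative helicase, had 8.34, 9.15 and 8.31 in N tax and 11.57, 11.34 and 11.72 in N epi, against 10.91, 10.58 and 10.75 in N. N tax was the lowest and N epi the highest, with no overlap (difference -2.94 ± 0.23, adjusted p = 1.2e-05, and 0.00255 in arrays 1 and 2), and the helicase gene MCM2 had 9.45, 10.19 and 9.17 in N tax and 12.17, 12.10 and 12.33 in N epi, against 11.78, 11.83 and 11.81 in N. For MCM2 the N epi difference from N, 0.40, did not pass (adjusted p = 0.159, but 0.00799 with N epi and N alone), whereas N tax differed from N epi by -2.60 ± 0.23 and from N by -2.20. GINS2, part of the same helicase, had 6.72, 7.65 and 6.84 in N tax and 10.46, 10.29 and 10.31 in N epi, against 9.67, 9.68 and 9.54 in N (difference -3.28 ± 0.22, adjusted p = 6.75e-06, and 0.00205 in arrays 1 and 2). E2F1, the S-phase activator itself, had 5.0, 6.66 and 5.0 in N tax and 9.17, 8.97 and 9.01 in N epi, against 8.06, 8.24 and 8.0 in N. N tax replicate 2 was nearer to N than its replicates, and all N tax arrays lay below N (difference -3.50 ± 0.40, adjusted p = 8.84e-05, and 0.00786 in arrays 1 and 2). DSCC1, which helps to load the clamp that tethers DNA polymerase, had a difference of -3.08.

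E2F sites were searched as TTTGGCGC, TTTCCCGC, TTTGCCGC and TTTCGCGC on both strands. These spellings can overlap, and a gene was counted once. At least 1 was present for 21 of 44 listed genes with a promoter entry (47.7%) and for 3.99% of all genes in the table (6.9% of those tested). In N tax 17 of 21 genes with a site were lower and 3 higher, against 13 of 23 lower and 6 higher without one. The 150 bases before the starts of E2F1 (chr20:33686386-33686535 on the minus strand) and GINS2 (chr16:85688955-85689104 on the minus strand, both GRCh38.p14), the replication genes with the largest deficits, are shown with the sites in capitals, on either strand.
E2F1: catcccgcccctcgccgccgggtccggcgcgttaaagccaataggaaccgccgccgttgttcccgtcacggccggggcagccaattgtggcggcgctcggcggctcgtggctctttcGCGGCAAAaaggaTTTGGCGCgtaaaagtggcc
GINS2: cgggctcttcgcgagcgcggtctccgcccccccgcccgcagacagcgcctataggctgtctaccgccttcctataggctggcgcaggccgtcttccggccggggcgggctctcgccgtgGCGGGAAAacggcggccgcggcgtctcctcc

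Of 50 repair and checkpoint genes, 19 (38%) were higher and 19 (38%) lower in N tax, 18 and 17 in arrays 1 and 2. These shares were near those of all genes (38.9% and 35.8%), so the list did not stand apart. BLM, a helicase that undoes crossed DNA strands, had 7.25, 6.95 and 6.91 in N tax and 2.61, 4.42 and 3.09 in N epi, against 8.12, 7.84 and 8.08 in N (difference 3.66 ± 0.40, adjusted p = 6.65e-05, and 0.00768 in arrays 1 and 2), lowest in N epi. PALB2, the partner of BRCA2, and ERCC4, a nuclease of excision repair, were higher by 3.40 and 3.32, with a difference between N tax and N of 0.04 and -0.15. WEE1, the kinase that holds back mitosis, had a difference of 3.71 with an adjusted p of 0.0527 in arrays 1 and 2, or 1.80 on another probe set. Histone genes of the replication type encode transcripts that mostly lack a poly(A) tail, and 15 of 38 on the array were tested. In N tax 9 were lower and 1 higher than in N epi, 8 and 0 of 14 in arrays 1 and 2, and N epi exceeded N in 13. Of the 15 genes, 10 exceeded the presence threshold on all 9 arrays. H2BC3 exceeded it on N epi arrays alone, so the presence filter fixed its direction. H3C2 had 4.58, 5.05 and 4.73 in N tax and 7.13, 6.09 and 6.75 in N epi, against 4.98, 4.46 and 5.08 in N, with N tax and N overlapping and N epi above them (difference -1.87 ± 0.28, adjusted p = 0.000376, and 0.019 in arrays 1 and 2).

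Mitosis is the stage at which paclitaxel acts. Of 50 mitosis and spindle genes, 30 were higher and 11 lower in N tax (median 0.71), 30 and 9 in arrays 1 and 2. N epi was lower than N in 30, and N tax was higher than N in 14 (median difference 0.01). TTK, a kinase of the spindle checkpoint, had 10.74, 10.67 and 10.72 in N tax and 7.64, 8.05 and 7.66 in N epi, against 10.23, 10.28 and 10.34 in N, and AURKA, the kinase of spindle poles, had 13.50, 13.39 and 13.56 in N tax and 11.35, 11.46 and 11.12 in N epi, against 12.94, 13.01 and 12.86 in N. Their N epi replicates were close together and below all other arrays, and N tax lay above N (2.93 ± 0.12 and 2.18 ± 0.11 between N tax and N epi), although another AURKA probe set gave 0.18. KIF18A (2.99), a motor that aligns chromosomes, and CENPF (2.26), a kinetochore protein gene, were also lower in N epi, with differences from N of -2.66 and -2.24.

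Tubulin genes, whose proteins paclitaxel binds, were higher in 5 and lower in 1 of 10 (median 0.25). These counts were 5 and 0 of 9 in arrays 1 and 2. TUBB, the main beta-tubulin, had 15.38, 15.47 and 15.37 in N tax and 15.49, 15.43 and 15.40 in N epi, against 15.49, 15.58 and 15.50 in N, and TUBA1B, the main alpha-tubulin, had 15.97, 16 and 15.90 in N tax and 16.04, 15.95 and 15.95 in N epi, against 16.04, 16.03 and 16.06 in N. On these probe sets N tax and N epi overlapped for both, with differences of -0.03 ± 0.07 (adjusted p = 0.696) and -0.02 ± 0.07 (adjusted p = 0.791). The 3 TUBB probe sets gave -0.37 to -0.03, 1 of them past the test as lower in N tax, and the 5 of TUBA1B gave -0.08 to -0.02, none past it. TUBB2A was raised by paclitaxel and TUBA1A lowered by epirubicin. TUBB2A had 12.41, 12.38 and 12.56 in N tax and 11.02, 11.87 and 10.93 in N epi, against 11.42, 11.54 and 11.17 in N (difference 1.18 ± 0.24, adjusted p = 0.00202, and 0.0422 in arrays 1 and 2). TUBA1A had 13.78, 13.50 and 14.03 in N tax and 12.59, 12.82 and 12.74 in N epi, against 14.06, 13.87 and 14.15 in N (difference 1.05 ± 0.15, adjusted p = 0.000259, and 0.00739 in arrays 1 and 2). Microtubule-associated and tubulin-folding genes gave 12 higher (42.9%) and 11 lower (39.3%) of 28, 9 and 9 in arrays 1 and 2. Those shares were near the 38.9% and 35.8% of all genes, so the list did not stand apart. MAP2, which bundles microtubules in neurons, was raised by paclitaxel, with 5.76, 4.97 and 6.14 in N tax and 3.57, 3.36 and 3.40 in N epi, against 3.37, 3.26 and 3.22 in N (difference 2.18 ± 0.26, adjusted p = 0.000102, and 0.00517 in arrays 1 and 2). MAP1S, which also binds microtubules, was lowered by epirubicin and was 2.28 higher in N tax.

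The topoisomerase II genes, whose proteins epirubicin traps, did not pass the test between the drugs on their brightest probe sets, and of 8 topoisomerase and TDP genes 4 were higher and 0 lower in N tax, with 1 higher in arrays 1 and 2. TOP2A had 11.41, 11.64 and 11.28 in N tax and 11.38, 11.57 and 11.46 in N epi, against 12.46, 12.53 and 12.48 in N. N tax and N epi overlapped (-0.03 ± 0.11, adjusted p = 0.816), although another probe set gave 0.95, and both lay about 1 log2 unit below N (-1.05 and -1.02). TOP2B had 9.92, 9.67 and 9.76 in N tax, against 9.87, 10.02 and 9.89 in N epi (-0.14 ± 0.09, adjusted p = 0.186). TDP2, which frees DNA ends from topoisomerase II, was higher in N tax by 0.76 (adjusted p = 0.000323, and 0.015 in arrays 1 and 2). Of 10 tested drug-efflux genes, 3 were higher and 5 lower in N tax, with 1 higher and 5 lower in arrays 1 and 2. ABCB1, the P-glycoprotein gene, did not exceed the presence threshold on enough arrays. ABCG2, an exporter of anthracyclines and other drugs, had 4.67, 5.11 and 4.64 in N tax and 6.67, 6.43 and 6.63 in N epi, against 6.11, 5.95 and 6.34 in N. Relative to N it fell by 1.33 in N tax and rose by 0.44 in N epi (difference -1.77 ± 0.16, adjusted p = 2.36e-05, and 0.00272 in arrays 1 and 2). ABCC10, a taxane exporter, was higher in N tax by 1.36, and relative to N it differed by 0.15 in N tax (adjusted p = 0.548, and 0.533 with N tax and N alone) and fell by 1.21 in N epi.

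Subunits of the mitochondrial respiratory chain were lower in N tax almost throughout, none by 4-fold. Of 67 tested, 65 were lower and 0 higher in N tax than in N epi (median -0.68), 61 in arrays 1 and 2 and 63 without N epi replicate 2. N epi exceeded N in 58 and lay below it in 2 (median 0.39), while N tax lay below N in 37 and above it in 0 (median -0.28). NDUFB7, of complex I, had 8.97, 8.99 and 9.0 in N tax and 10.65, 10.64 and 10.75 in N epi, against 9.61, 9.66 and 9.61 in N. The 3 conditions were separate, with N in the middle (difference -1.69 ± 0.07, adjusted p = 1.39e-06, and 0.000908 in arrays 1 and 2), and the other probe set gave -0.68. ATP5MC1, a subunit of the ATP synthase ring, had 11.10, 11.34 and 10.97 in N tax and 12.86, 12.74 and 12.84 in N epi, against 12.01, 11.93 and 11.85 in N and the same order (difference -1.68 ± 0.11, adjusted p = 5.54e-06, and 0.00124 in arrays 1 and 2).

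Glycolytic enzymes were lower in N tax in 18 and higher in 4 of 25 (median -0.59), 16 and 3 in arrays 1 and 2. The higher ones were led by PFKFB4 and SLC2A3 (2.19), a glucose transporter gene. PFKL, a phosphofructokinase subunit, had 8.41, 8.69 and 8.57 in N tax and 10.07, 9.92 and 9.89 in N epi, against 9.24, 9.34 and 9.17 in N (difference -1.41 ± 0.10, adjusted p = 8.31e-06, and 0.00172 in arrays 1 and 2). Cytosolic ribosomal protein genes moved little, 1 higher and 13 lower of 53 (median -0.08), with 6 lower in arrays 1 and 2. Of the genes past the test, RPL6 had the largest deficit, -0.44 ± 0.07. Among genes of invasion 8 (34.8%) were higher and 8 (34.8%) lower of 23, 8 and 7 of 22 in arrays 1 and 2. Such shares were near the 38.9% and 35.8% of all genes. PLAUR, the receptor of urokinase, was raised by paclitaxel on its brightest probe set, with 13.22, 13.42 and 13.34 in N tax and 11.58, 11.64 and 11.84 in N epi, against 11.54, 11.64 and 11.94 in N (difference 1.64 ± 0.13, adjusted p = 1.19e-05, and 0.000996 in arrays 1 and 2). Of its 3 probe sets 2 passed as higher in N tax than in N epi and 1 as lower, at -0.85. CXCR4, a chemokine receptor of metastasis, had 4.42, 4.85 and 4.50 in N tax and 6.37, 8.05 and 5.92 in N epi, against 5.67, 5.41 and 5.28 in N. N epi replicate 2 was its highest array and all N epi arrays lay above N and N tax (difference -2.19 ± 0.47, adjusted p = 0.00312, and 0.0171 in arrays 1 and 2). TIMP3, an inhibitor of matrix proteases, was lower in N tax than in N epi (difference -1.43 ± 0.12, adjusted p = 1.63e-05, and 0.00206 in arrays 1 and 2), and relative to N it fell by 2.48 in N tax and fell by 1.05 in N epi.

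Iron, metal and noncoding genes gave mixed counts. Of 12 iron genes 5 were higher and 6 lower in N tax, with SLC40A1, the iron exporter ferroportin, at 5.68, 5.42 and 6.19 in N tax and 4.15, 3.36 and 3.11 in N epi, against 5.94, 5.44 and 5.86 in N, low in N epi (difference 2.22 ± 0.30, adjusted p = 0.000225, and 0.00942 in arrays 1 and 2). Of 11 metallothionein and zinc transport genes 3 were higher and 2 lower, and the higher ones were the zinc exporter SLC30A1 (2.19), the zinc-sensing factor MTF1 (1.26) and the importer SLC39A14 (0.90). DANCR, a snoRNA host transcript, had 11.24, 11.13 and 11.25 in N tax and 13.49, 13.40 and 13.59 in N epi, against 12.66, 12.48 and 12.51 in N, with N between the drugs (difference -2.28 ± 0.09, adjusted p = 1.13e-06, and 0.000908 in arrays 1 and 2), and FTX, a long noncoding transcript of the X chromosome, was higher in N tax by 5.38, or 1.45 on its other probe set. Luminal markers went both ways, 3 higher and 5 lower of the 9 tested, 2 and 3 of 8 in arrays 1 and 2. AGR2, a secretory disulfide isomerase, had 11.55, 11.30 and 11.72 in N tax and 8.72, 8.80 and 7.65 in N epi, against 9.94, 9.05 and 10.06 in N (difference 3.14 ± 0.36, adjusted p = 8.93e-05, and 0.00284 in arrays 1 and 2), and TFF1, a secreted trefoil peptide, had 3.91, 3.91 and 3.36 in N tax and 6.66, 6.93 and 5.83 in N epi, against 3.54, 4.05 and 3.47 in N, raised by epirubicin (difference -2.75 ± 0.30, adjusted p = 7.16e-05, and 0.00114 in arrays 1 and 2).

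Genes that the drugs moved in opposite directions relative to N numbered 632 with N tax above and N epi below N, and 985 with N tax below and N epi above it. With each drug fitted with N alone these were 1097 and 1030. Ranked by the smaller of their changes from N, the 8 leading genes of the first kind were TRIB3, CHAC1, IFIT2, IFIT3, IFI44, LINC00622, ZNF397 and KLHL21. For LINC00622 the N epi difference from N did not pass with N epi and N alone (adjusted p = 0.0523). Its N epi replicate 2 (4.68) lay above N replicate 1 (4.56). For KLHL21 the N epi difference from N passed narrowly in that fit (adjusted p = 0.0495). ZNF397 had 6.74, 6.57 and 6.74 in N tax and 2.69, 2.69 and 2.69 in N epi, against 4.33, 4.44 and 4.83 in N, below the presence threshold in N epi and at least 11.6-fold higher in N tax (adjusted p = 6.12e-07, and 0.000874 in arrays 1 and 2), with another probe set at 0.99. KLHL21, an adaptor that moves Aurora B to the midzone, had 9.98, 9.56 and 10.07 in N tax and 6.02, 7.58 and 4.88 in N epi, against 8.02, 8.05 and 8.04 in N (difference 3.71 ± 0.56, adjusted p = 0.000432, and 0.00888 in arrays 1 and 2). The 8 leading genes of the second kind were AGPAT5, AIF1L, ALDH1A3, FOXP4-AS1, TNFRSF10D, UNG, PRTFDC1 and EVL. PRTFDC1, a relative of the purine salvage enzyme HPRT1, had 7.34, 7.23 and 7.33 in N tax and 10.40, 10.37 and 10.36 in N epi, against 9.18, 9.07 and 9.04 in N, with the arrays of each condition close together (difference -3.08 ± 0.08, adjusted p = 3.25e-07, and 0.000874 in arrays 1 and 2). EVL, which speeds actin growth, had 4.90, 5.38 and 4.10 in N tax and 7.74, 6.97 and 7.78 in N epi, against 6.21, 6.16 and 6.28 in N (difference -2.70 ± 0.33, adjusted p = 0.000122, and 0.00439 in arrays 1 and 2). That the N mean lies between the drugs follows from the choice of these genes.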

How the data were processed

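MDA-MB-231 cells were profiled on Affymetrix HG-U133 Plus 2.0 arrays, and the deposited log2 values had been made by the authors with GC-RMA. The methods of the study name AffyProbeMiner chip definitions, while the values carry the standard Affymetrix probe set names, and the genome build and annotation are not given in the sources used here. Of 54675 probe sets, 62 controls were set aside. Gene names came from the platform annotation (41091 probe sets with 1 symbol, 1801 with several, 11721 not listed). The 9 normoxic arrays were fitted together by title with limma 3.58.1 in R 4.3.3 (lmFit, contrasts, eBayes, 6 residual and 2.12 prior degrees of freedom), with Benjamini-Hochberg adjustment over 24126 probe sets above the presence threshold (8.84 on the linear scale) on at least 2 of 3 arrays of a condition, and a threshold of 0.05 (23623 probe sets in arrays 1 and 2). The probe set with the highest mean over the 9 arrays stood for a gene, and its adjusted p is that over all probe sets. The fit and filters were checked on simulated data. With 3 arrays a condition, their number limits the precision.

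Deviations of same-numbered arrays from their condition's mean correlated between -0.0736 and 0.153, so not every pair exceeded 0.1 and replicate number was not used as a block. Named genes were the 15 largest rises and 15 largest falls past the test in both fits with no overlap between N tax and N epi, up to 4 members of each list with the largest difference past the test, the 8 leading genes in each direction that the drugs moved oppositely, and the drug target genes. VIM, ESR1 and MAD2L1BP were named beside the rule after their values were seen. The comparison and all 39 gene lists were chosen with earlier results of these data known. Lists share members, so their counts are not independent. Bounds of the form "at least N-fold" set the condition below the presence threshold to that threshold. Each drug was also fitted with N on those 6 arrays alone, chosen after seeing the data (4 residual degrees of freedom). Other alternatives were another grouping of the third arrays, arrays left out, the replicate block, other sets of arrays, presence filters, normalizations, variance models and array weights, and all probe sets of a gene. Promoter sequences came from RefSeq (GRCh38.p14).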

Additional observations from a re-analysis of the deposited data

How the results depend on the processing

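Counts here are of probe sets past the test, 8960 higher and 8630 lower in N tax than in N epi, and 2791 and 581 by 4-fold or more. Grouping of the third arrays mattered most. With these placed by source name, 0 probe sets passed in either direction between N tax and N epi, by 4-fold or more, between N tax and N, or between N epi and N by limma, and 282, 262 and 427 of 23728 had an unadjusted p under 0.05. In arrays 1 and 2, 7312 were higher and 7284 lower in N tax than in N epi, and relative to N, 1994 were higher and 3052 lower in N tax, against 4032 and 5052 with all arrays. Leaving out each array in turn gave 8276 to 8925 higher, 7860 to 8630 lower, 2515 to 3168 and 523 to 681 by 4-fold or more. It gave 2980 to 5113 higher and 3943 to 5681 lower in N tax than in N, and 6809 to 7830 higher and 7325 to 8212 lower in N epi than in N. Quantile normalization moved the median of all genes between N tax and N epi by -0.137 and gave 7659 higher and 10982 lower, and median centring moved it by 0.0573 and gave 9367 and 8063. By 4-fold or more, quantile normalization gave 2185 higher and 979 lower, against 2791 and 581, so the excess of large differences in 1 direction became smaller. Between N epi and N, quantile normalization gave 10335 higher and 6768 lower, against 7722 and 8083. Array weights gave 6419 higher in N tax than in N. The 6 N tax and N arrays alone, a setting chosen after seeing the data, gave 5137 higher and 5611 lower of 23572, and the 6 N epi and N arrays alone 7539 and 7841 of 23659. The replicate block gave 8889 higher and 8503 lower in N tax than in N epi and changed the call of none of the 173 named genes. Lists with a majority of more than 1 gene in a direction kept it under quantile normalization and median centring, while microtubule-associated genes gave 10 higher and 13 lower under the quantile setting. In arrays 1 and 2, 148 of 172 named genes kept their call and 23 lost it, and without N epi replicate 2, 172 of 173 kept it. The sign turned for TOP2A (0.0472 in arrays 1 and 2, -0.129 to 0.0522 with arrays left out, 0.118 with quantile normalization, 0.0269 with median centring), TUBA1B (-0.0425 to 0.00603 with arrays left out, 0.0341 with median centring) and TUBB (0.0228 with median centring), none of which passed the test with all arrays, and for TOP3A (-0.23 by source name), which no longer passed. The causes were not tested.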
